A study of Mus musculus with 20 samples.

Results

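Potassium channel genes were examined in the hearts of mice with iron-deficiency anemia (IDA) and of control mice. The members are the genes whose symbol is Kcn followed by a subfamily letter code and a number, 92 of the 23420 genes counted. A gene was tested when it reached at least 1 CPM (counts scaled to a common library total) in at least 10 of the 20 mice, and 50 of the 92 members passed, among 13590 genes in all. The members to test were thus selected on their measured CPM level over both groups, and the 42 others are described only by their level. RNA was sequenced from cardiac tissue of 10 control and 10 IDA wild type male C57BL/6 mice aged 9 weeks, each mouse giving 1 library. All mice went onto their diet at 3 weeks of age for 6 weeks, control mice a control diet and IDA mice an iron-deficient one, whose iron the labels give as below 2 ppm in 1 field and above 2 ppm in another. Whole hearts were pulverised, so each library mixes atria and ventricles and every cardiac cell type.

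Potassium channels carry the outward currents that end the cardiac action potential and hold the resting potential of the myocyte. In the mouse ventricle, fast repolarisation rests on voltage-gated (Kv) channels such as those of the Kcnd and Kcna subfamilies, while inward rectifiers of the Kcnj subfamily set the resting potential, answer acetylcholine in the atria and respond to the energy state of the cell. Most of these channels are assemblies of a pore subunit with accessory subunits that change its trafficking and gating, so the transcripts of each pair are given together.

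Total counts lay between 6797180 and 8960688 per control mouse and between 6682177 and 7833916 per IDA mouse. Summed markers of cardiomyocytes were at 3724 to 4510 CPM in control and 3197 to 4601 CPM in IDA hearts. The 6 markers did not move together. By edgeR, 2 were called higher (Tnni3 and Myl3) and 1 lower (Ryr2, with means of 1774 and 1248 CPM). With the gene length correction given below, 2 were called higher and 4 lower. The sum therefore does not show that the myocyte share was unchanged. Summed erythroid markers were higher in every IDA heart, at 134 to 561 CPM against 51.2 to 125 CPM in control hearts, with 3 of 3 tested markers higher, Hba-a1 at 0 in every mouse and 3 listed markers not in the counts. These sums do not overlap between the groups, so the diet and the erythroid markers cannot be told apart. In tissue RNA, fewer cells of a type and less RNA per cell cannot be told apart.

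Fold changes followed gene length in these libraries. Over all 13590 tested genes, Spearman's rho between the log2 fold change and the exonic length was -0.63, and over the 50 members it was -0.54. These are descriptions across genes, which share libraries and are not independent replicates. The cause of this trend was not tested. Fold changes are therefore given as measured and, for the main results, again after a correction that removes the length trend from each mouse, after which rho was -0.02 over all genes and -0.27 over the members.

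Of the 50 tested members, 12 rose and 17 fell in IDA hearts (edgeR quasi-likelihood test, adjusted p below 0.05 over all tested genes). Among all tested genes, 67.5% were called, 35% as higher and 32.5% as lower, beside 24% and 34% of the members. With the length correction 17 members rose and 13 fell, where 55% of all genes were called, 31.5% as higher and 23.5% as lower. With a correction for length and GC content 6 rose and 13 fell, against 47.6% of all genes called, 28.1% higher and 19.5% lower. With the mean erythroid marker level as a covariate 20 members were called, 8 higher and 12 lower. The share of all tested genes called in this fit was not counted, so the fall cannot be set against other genes. The named genes that lost their calls were Kcne1, Kcnj14, Kcnj5, Kcnj11, Kcnma1, Kcnn4, Kcnc2, Kcnt1 and Kcnv2, with edgeR adjusted p from 0.0527 to 0.551. A cutoff of 0.01 on the unadjusted p of edgeR and of DESeq2, modelled on the study's rule, passed 25 members, beside 59.8% of all genes. The study itself reported far fewer genes by its rule, most of them lower in IDA hearts, with a mouse of each group left out. Its text does not say whether its p was adjusted. The cause of this gap was not tested, so the share given here is not the study's result. The groups' CPM ranges did not overlap for 4 members, with Kcna2, Kcnt2 and Kcnj8 among them, beside 11.3% of all genes.

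The members that fell were mostly long. The 15 members over 5000 bp had 11 calls lower and 0 higher, beside 74.6% lower and 3.59% higher for all genes that long. Their median log2 fold change was -0.71 beside -0.44. The 13 members up to 3000 bp had 6 calls higher and 3 lower, beside 55.1% higher and 11.4% lower for all genes that short. Their median was 0.22 beside 0.20. After the length correction the median of the longest members was -0.39, with 7 lower and 2 higher. Of all genes that long, 31.4% were then called lower and 31.8% higher. In all, 11 members rose and 12 fell both as measured and with the length correction, and 6 rose and 10 fell in all 3 fits. The share of all tested genes called in the same fits together was not counted, so these counts have no background beside them.

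**Figure D1:**
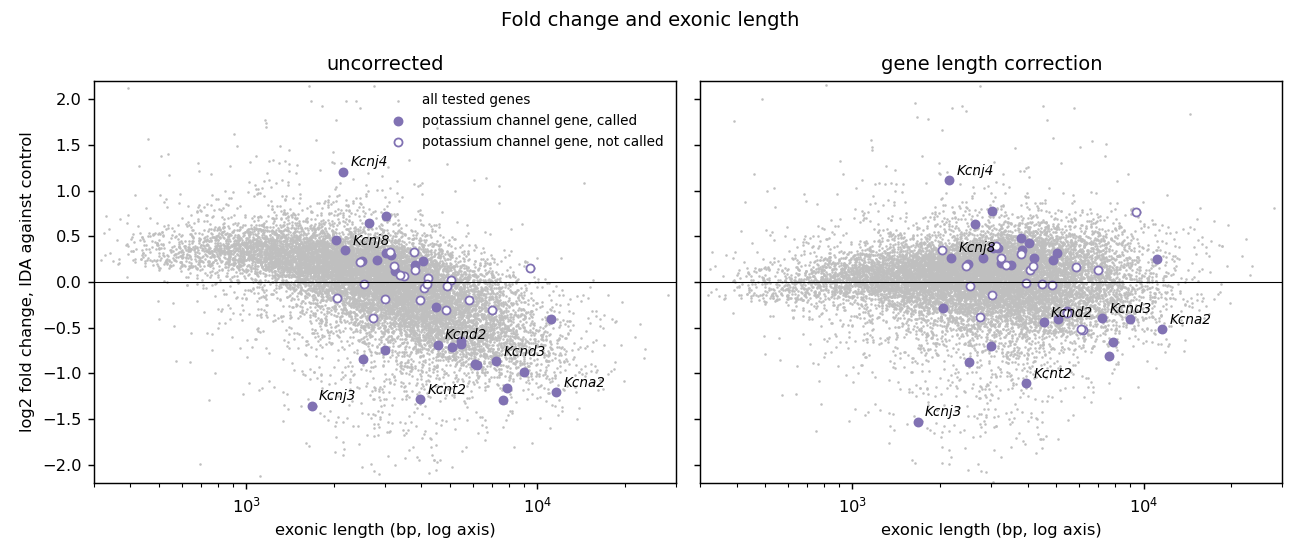
Log2 fold change of IDA against control hearts (vertical axis) by exonic length in bp (horizontal log axis), as measured on the left and with the length correction on the right. Grey points are the tested genes, of which 41 on the left and 40 on the right lie outside the axes. Purple points are the 50 potassium channel genes, filled where called. The 15 members over 5000 bp hold 11 of the 17 that fell as measured. Of all genes that long, 74.6% were called lower as measured.

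Among the Kv pore genes, 13 of 17 were tested, 6 fell and 1 rose as measured, and 4 fell and 4 rose with the length correction. Of the inward rectifiers (Kcnj), 9 of 15 were tested, with 4 up and 4 down as measured and 5 up and 2 down with the length correction. Of the channels activated by calcium or sodium, 8 of 12 were tested. As measured 4 fell and 2 rose, with the correction 4 fell and 1 rose, and 3 fell in both fits (Kcnma1, Kcnn3 and Kcnt2). Of the two-pore Kcnk genes, 5 of 14 were tested and 1 rose in both fits.

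**Figure D2:**
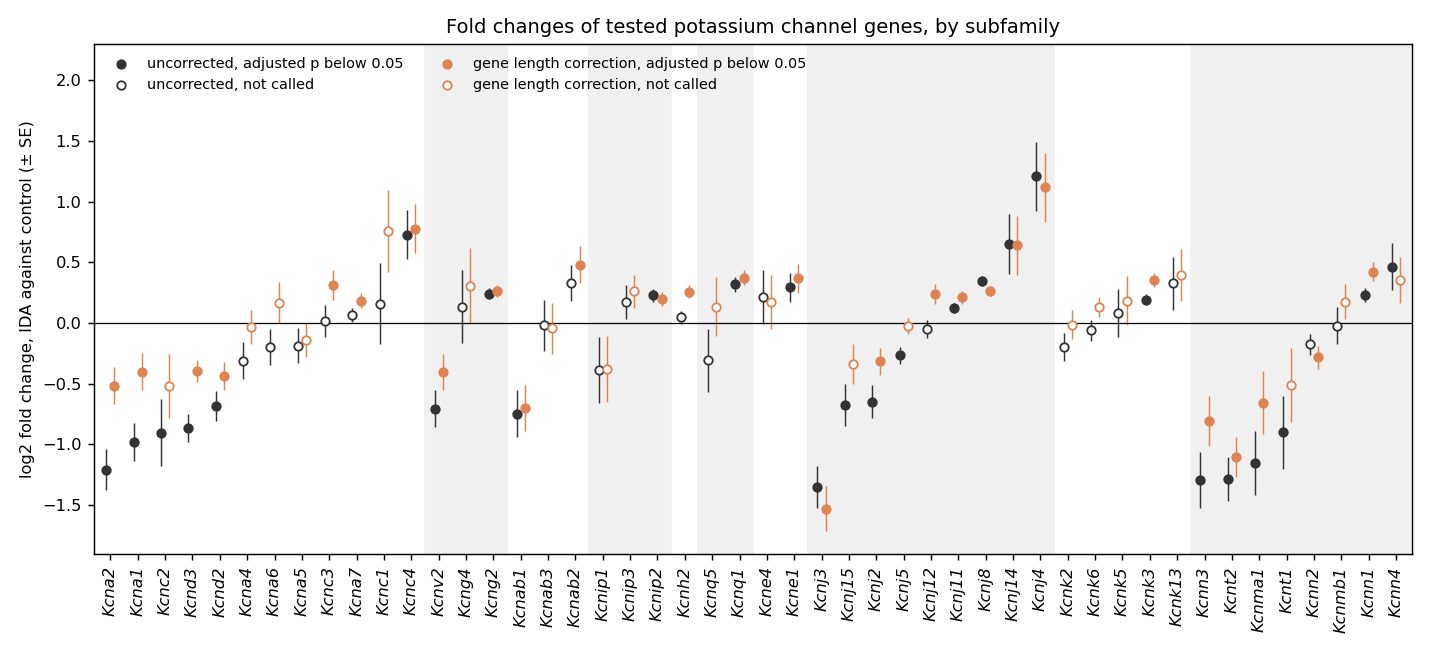
Log2 fold change (vertical axis, bars are the SE) of 48 tested potassium channel genes, ordered by subfamily in shaded blocks. Black points are as measured and orange points carry the length correction, filled where the adjusted p was below 0.05. Kcnj3 is lowest and Kcnj4 highest in both fits.

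The transient outward current of the mouse ventricle is carried by Kcnd2 and Kcnd3 pores with the cytoplasmic subunit Kcnip2, and Kcnj2 forms a strong inward rectifier that holds the resting potential. Because Kcnd2, Kcnd3 and Kcnj2 fell as measured while Kcnip2 rose, the 250 bases before the RefSeq gene start of each are shown (RefSeq, GRCm38.p6, 5′ to 3′ on the gene's strand). They lie at chr6:21215096-21215345 (plus strand), chr3:105451640-105451889 (plus), chr19:45816064-45816313 (minus) and chr11:111065914-111066163 (plus). Capitals mark the core of the hypoxia-inducible factor site, ACGTG, and the GC box, GGGCGG, searched on both strands.
Kcnd2: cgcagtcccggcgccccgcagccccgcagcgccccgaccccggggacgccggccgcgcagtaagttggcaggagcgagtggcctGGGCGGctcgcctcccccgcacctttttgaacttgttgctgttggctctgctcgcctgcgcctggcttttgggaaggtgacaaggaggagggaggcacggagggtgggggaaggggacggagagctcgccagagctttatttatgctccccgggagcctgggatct
Kcnd3: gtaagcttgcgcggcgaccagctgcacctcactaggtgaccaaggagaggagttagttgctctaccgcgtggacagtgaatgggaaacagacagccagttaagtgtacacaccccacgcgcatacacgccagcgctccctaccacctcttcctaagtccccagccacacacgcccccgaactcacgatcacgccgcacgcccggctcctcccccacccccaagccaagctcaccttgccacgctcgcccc
Kcnip2: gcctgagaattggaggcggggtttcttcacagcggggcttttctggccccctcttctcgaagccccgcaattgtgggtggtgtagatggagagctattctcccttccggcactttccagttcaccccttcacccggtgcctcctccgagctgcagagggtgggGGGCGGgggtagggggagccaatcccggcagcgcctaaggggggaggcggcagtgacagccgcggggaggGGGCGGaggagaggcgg
Kcnj2: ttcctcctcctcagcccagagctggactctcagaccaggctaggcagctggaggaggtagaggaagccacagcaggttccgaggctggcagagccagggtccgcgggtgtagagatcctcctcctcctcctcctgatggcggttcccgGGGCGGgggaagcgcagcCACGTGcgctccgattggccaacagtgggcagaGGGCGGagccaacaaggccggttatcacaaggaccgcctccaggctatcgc
Kcnj2 holds the palindrome CACGTG, which reads as the core on both strands, and 2 GC boxes, Kcnip2 holds 2 GC boxes and Kcnd2 holds 1. Neither motif is in the Kcnd3 window. RefSeq held a window for 35 of the 50 tested members, 51 windows in all, and 8 of them (15.7%) contain ACGTG beside 16.6% of all 32851 windows, while 19 (37.3%) contain GGGCGG beside 32.7%. A match is a description of the letters and says nothing about binding.

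Kcnd2 (chr6:21216109-21729805, mm10) was at 62.5 CPM in the lowest, 85.0 in the median and 103 in the highest control heart, and at 24.5, 55.2 and 68.6 CPM in IDA hearts. The ranges overlapped only at their edges. It fell by 0.68 ± 0.13 on the log2 scale (SE, edgeR adjusted p = 5.57e-05) and by 0.44 with the length correction (adjusted p = 0.00228). Kcnd3 (chr3:105452330-105674002), the other pore of this current, lay at 34.0, 54.8 and 60.4 CPM in control and 19.0, 27.9 and 42.5 CPM in IDA hearts. Of 10 IDA hearts, 9 lay below the control range. Its log2 fold change was -0.86 ± 0.11 (edgeR adjusted p = 1.09e-06), or -0.39 with the length correction (adjusted p = 0.000656). Kcnip2 (chr19:45792346-45816063), which brings these pores to the membrane, was at 252.3, 287 and 319 CPM in control and 269, 341 and 367 CPM in IDA hearts. The ranges overlapped, and 7 of 10 IDA hearts lay above every control heart. It rose by 0.23 ± 0.05 (edgeR adjusted p = 0.000895), and by 0.19 with the length correction (adjusted p = 0.00596), and was not called with length and GC content (0.11, adjusted p = 0.122). Nor was it called with library size as a covariate (0.10, edgeR adjusted p = 0.0712). In the 8 libraries with the higher numbers in their column names it was at 0.15 and not called (adjusted p = 0.0918).

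Since both transcripts of a ratio come from 1 library, the balance of subunits was tested for 11 pairs, 10 of which are reported, by a two-sided permutation test with 100000 resamples, adjusted over the 11. The log2 ratio of Kcnip2 to Kcnd2 ran from 1.29 to 2.24 in control and from 2.31 to 3.44 in IDA hearts. All 10 IDA hearts lay above all 10 control hearts. The difference was 0.94 on the log2 scale (adjusted p = 7.33e-05, resting on the smallest p that these resamples can give), and 0.66 with the length correction. The ratios were not tested with length and GC content, where Kcnip2 alone was at 0.11 and Kcnd2 at -0.28. The ratio of Kcnd3 to Kcnd2 differed by -0.15 (adjusted p = 0.153).

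Of the other Kv pores of the ventricle, Kcna5, which activates rapidly, was at 87.0 ± 21.4 CPM (SD, n = 10) in control and 76.3 ± 18.8 CPM in IDA hearts and was not called (log2 fold change -0.19, edgeR adjusted p = 0.253). The column names carry library numbers in 2 runs, and Kcna5 was at 0.28 in the 12 lower-numbered libraries (adjusted p = 0.081) and at -0.82 in the 8 higher-numbered ones (adjusted p = 0.00236), so no direction is given for it. Kcna4, a pore of the slow transient current, was at 4.14 ± 1.15 and 3.36 ± 0.652 CPM and was not called either (-0.31, edgeR adjusted p = 0.0726).

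Kcnab1 and Kcnab2 encode cytoplasmic beta subunits of Kcna pores. Kcnab1 fell from 6.05 to 3.57 CPM, by 0.75 ± 0.19 on the log2 scale (edgeR adjusted p = 0.00163), and by 0.70 with the length correction. Kcnab2 was at 6.88 and 8.60 CPM and was not called as measured (0.33, edgeR adjusted p = 0.0573). It was called higher with the length correction (0.48, adjusted p = 0.00884) and with library size as a covariate (0.51, adjusted p = 0.0149), and in 26 of 100 fits without a mouse of each group. The ratio of Kcnab1 to Kcna5 was lower in IDA hearts by -0.56 (permutation test, adjusted p = 0.0313), over all 20 mice. Only 1 IDA heart lay below every control heart. In the 8 higher-numbered libraries the log2 ratio was -4.86 to -3.59 in control and -4.24 to -3.97 in IDA hearts. In the 12 lower-numbered ones it was -4.07 to -3.11 in control and -5.12 to -3.89 in IDA hearts. This ratio was not tested within either run, so like Kcna5 it is given no direction. Among low-level Kv pores, Kcna2 was at 8.85, 13 and 21.9 CPM in control and 4.12, 6.17 and 7.51 CPM in IDA hearts. The CPM ranges did not overlap. Its log2 fold change was -1.21 ± 0.17 (edgeR adjusted p = 2.03e-06), and -0.52 with the length correction (adjusted p = 0.00684). Kcnc4, a fast-gating pore, was at 0.823 and 1.38 CPM and passed the level filter mainly through IDA hearts, 8 of which reached 1 CPM against 2 control hearts.

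The slow and rapid delayed rectifiers are carried by Kcnq1 with its accessory subunit Kcne1 and by Kcnh2. Kcnq1 (chr7:143107254-143427042) was at 122, 129 and 156 CPM in control and 129, 167 and 195 CPM in IDA hearts. Ranges overlapped, and 6 of 10 IDA hearts lay above every control heart. It rose by 0.32 ± 0.06 (edgeR adjusted p = 9.11e-05), by 0.38 with the length correction and by 0.22 with length and GC content (adjusted p = 0.0032). Kcne1 was at 18.9, 22.7 and 39.7 CPM in control and 22.4, 28.9 and 38.9 CPM in IDA hearts. The ranges overlapped nearly in full. It rose by 0.30 ± 0.12 (edgeR adjusted p = 0.034), a call that was lost in 55 of 100 fits without a mouse of each group and without any of 9 single mice, with log2 fold changes of 0.25 to 0.28 and the highest adjusted p, 0.0725, without IDA 5. The ratio of Kcne1 to Kcnq1 differed by -0.0076, less than the SD of either group (0.234 and 0.22 on the log2 scale, permutation test, adjusted p = 0.937). Kcnh2 was at 209 ± 9.97 and 216 ± 22.3 CPM, was not called as measured (0.05, edgeR adjusted p = 0.428) and was called higher with the length correction (0.26, adjusted p = 0.000511) but not with length and GC content (-0.06, adjusted p = 0.364).

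**Figure D3:**
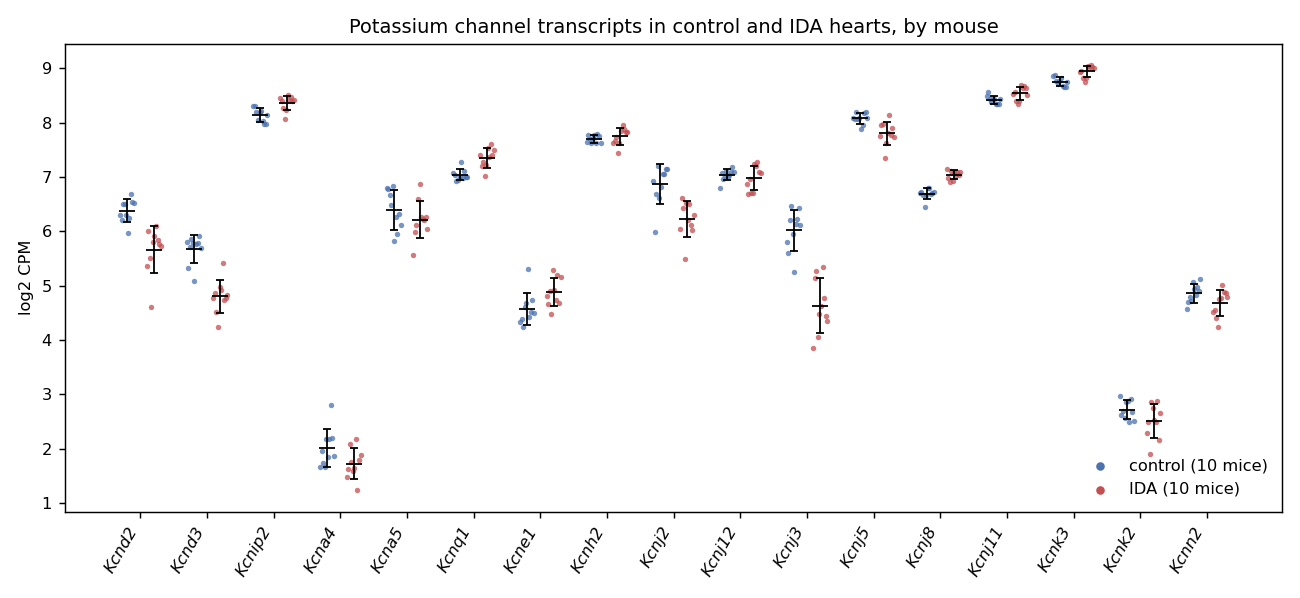
Level of 17 potassium channel genes as log2 CPM (vertical axis) in each of 10 control (blue) and 10 IDA (red) hearts, with the mean and SD in black. Kcnj3, Kcnd2 and Kcnd3 sit lower in IDA hearts, and Kcnj8 sits higher with no overlap.

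Kcnj3 and Kcnj5 together form the channel that acetylcholine opens in atrial and nodal cells. Kcnj3 (chr2:55437156-55595525) was at 38.0, 69.7 and 88.5 CPM in control and 14.4, 23.5 and 40.8 CPM in IDA hearts. Only the edges of the ranges met. Its log2 fold change was -1.35 ± 0.17 (edgeR adjusted p = 9.09e-07), to 0.391 of the control level, and -1.53 with the length correction. The counts used 1679 bp of Kcnj3 exons, while the longest GENCODE transcript has 5215 bp, and with that length the change was -1.08 (adjusted p = 3.88e-06). GENCODE also lists the antisense gene Gm26794 over 705 bp of its exons, and counting without strand cannot tell the 2 apart. This limit is not particular to Kcnj3. Other named members share exonic bases with opposite-strand genes, among them Kcnk2 (476 bp), Kcnma1 (362 bp), Kcnn2 (284 bp), Kcnk3 (229 bp), Kcnd3 (165 bp) and Kcnq1 (121 bp). The part of these overlaps in the counts was not tested. Kcnj5 was at 236.2, 271 and 295 CPM in control and 163, 222 and 283 CPM in IDA hearts. It fell as measured (-0.27 ± 0.07, edgeR adjusted p = 0.00181) and was not called with the length correction (-0.03, adjusted p = 0.759). The log2 ratio of Kcnj3 to Kcnj5 was -2.63 to -1.59 in control and -3.88 to -2.71 in IDA hearts. No IDA heart reached the control range, and the difference was -1.10 (permutation test, adjusted p = 7.33e-05). Of 5 atrial markers, 1 was called higher and 0 lower, and with the length correction 0 were called in either direction. Their sum was 269 to 614 CPM in control and 270 to 796 CPM in IDA hearts. Conduction system markers had 2 of 3 tested called lower, their sum being 151 to 235.6 CPM in control and 95.1 to 188 CPM in IDA hearts, and with the length correction 2 were called higher and 1, Hcn4, lower. The part of these markers in the Kcnj3 result was not tested.

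Kcnj2 (chr11:111066164-111076825) was at 63.3, 127 and 147 CPM in control and 44.9, 76.5 and 97.6 CPM in IDA hearts. The lowest control heart lay within the IDA range. Its log2 fold change was -0.65 ± 0.13 (edgeR adjusted p = 0.000189), -0.31 with the length correction (adjusted p = 0.0204) and -0.10 with length and GC content (adjusted p = 0.434). In the 8 higher-numbered libraries alone Kcnj2 was at -0.37 and not called (edgeR adjusted p = 0.19). Kcnj12, which joins Kcnj2 in the same current, was at 132 ± 9.06 and 128 ± 19.95 CPM and was not called as measured (-0.05, edgeR adjusted p = 0.568). The ratio of Kcnj12 to Kcnj2 was higher in IDA hearts by 0.58 (permutation test, adjusted p = 0.00823), in 9 of 10 above the control mean, and by 0.53 with the length correction. With length and GC content Kcnj12 was at 0.02 (edgeR adjusted p = 0.793) and Kcnj2 at -0.10, and the ratio was not tested there. The counts used 4886 bp of Kcnj12 exons, while its longest GENCODE transcript has 2463 bp. With GENCODE lengths Kcnj12 was at -0.16 and Kcnj2 at -0.34. Kcnj4 and Kcnj14, further inward rectifiers of low level, rose by 1.21 ± 0.29 (edgeR adjusted p = 0.000756) and 0.65 ± 0.25 (adjusted p = 0.0236). Without IDA 4, Kcnj14 was at 0.37 and was not called (adjusted p = 0.0739). With the length correction Kcnj4 and Kcnj14 were at 1.12 and 0.64 (edgeR adjusted p = 0.00206 and 0.0303). Kcnj14 was not called with length and GC content (0.38, edgeR adjusted p = 0.187) or the GENCODE length (0.57, adjusted p = 0.0506). Nor was Kcnj14 called in the lower-numbered (0.63, edgeR adjusted p = 0.12) or higher-numbered libraries alone (0.45, adjusted p = 0.238). Kcnj4 reached 1 CPM in 5 control and 10 IDA hearts, so it passed the level filter mainly through the group where it was higher.

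Kcnj11 and Kcnj8 are the pores of the channels closed by ATP, with the sulfonylurea receptors Abcc8 and Abcc9 as partners. Kcnj8 (chr6:142564939-142571356) was at 87.5, 105 and 112 CPM in control and 120, 134 and 143 CPM in IDA hearts. Every IDA heart lay above every control heart. It rose by 0.35 ± 0.04 (edgeR adjusted p = 5.58e-07), by 0.26 with the length correction and by 0.24 with length and GC content (adjusted p = 2.01e-05). Kcnj11 was at 343 ± 17.3 and 374 ± 31.1 CPM and rose by 0.12 ± 0.04 (edgeR adjusted p = 0.018, a call lost in 18 of 100 fits without a mouse of each group), with -0.02 under length and GC content. Abcc9 fell by 0.72 ± 0.11 and by 0.24 with the length correction (edgeR adjusted p = 6.98e-06 and 0.0103), and Abcc8 rose by 0.26 ± 0.06 (adjusted p = 0.000291). The ratio of Abcc9 to Kcnj11 was lower by -0.87 (permutation test, adjusted p = 7.33e-05), with 9 of 10 IDA hearts below every control heart. With the length correction this ratio differed by -0.47 (permutation test, adjusted p = 0.00022). The ratio of Kcnj8 to Kcnj11 was higher by 0.23 (adjusted p = 0.000704) and by 0.06 with the length correction (adjusted p = 0.367).

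**Figure D4:**
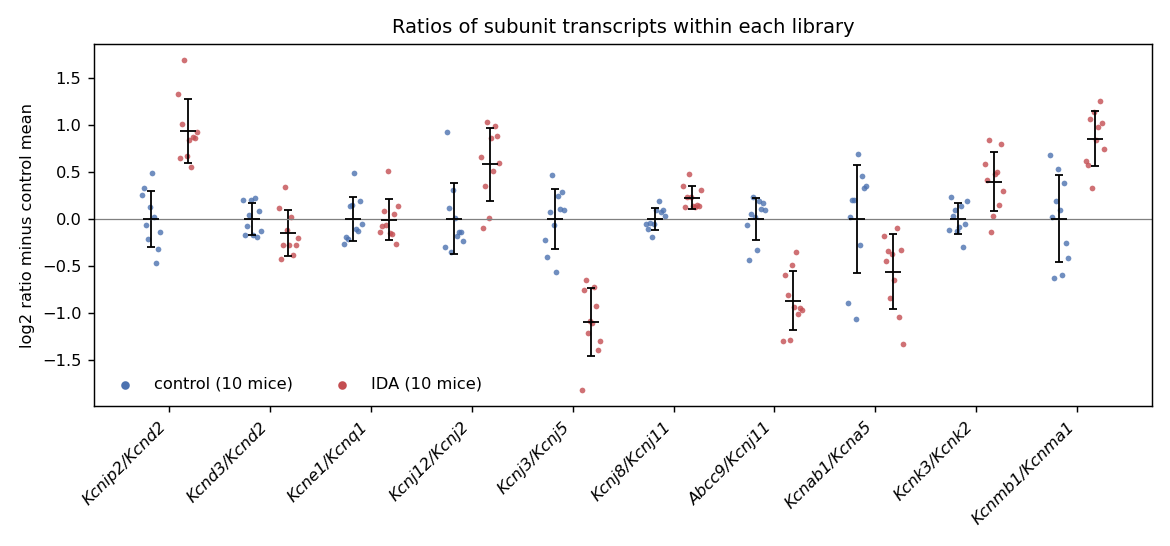
Log2 ratio of 10 pairs of transcripts within each library, less the control mean (vertical axis), for 10 control (blue) and 10 IDA (red) hearts with mean and SD. The IDA hearts lie above all control hearts for Kcnip2 to Kcnd2 and below all of them for Kcnj3 to Kcnj5.

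Kcnk3, a two-pore background channel, had a level per length like that of Kcnip2, at 114 CPM per kb in control hearts for each, the highest of the members. It was at 402, 433 and 473 CPM in control and 432, 504 and 534 CPM in IDA hearts. Its ranges overlapped, and it rose by 0.19 ± 0.04 (edgeR adjusted p = 0.000597) and by 0.35 with the length correction. In the 8 higher-numbered libraries alone Kcnk3 was at 0.09 and not called (edgeR adjusted p = 0.243). Kcnk2, a stretch-sensitive relative, was at 6.61 and 5.78 CPM and was not called (-0.20, edgeR adjusted p = 0.141). The ratio of Kcnk3 to Kcnk2 was higher by 0.39 (permutation test, adjusted p = 0.00546).

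Among channels activated by calcium or sodium, Kcnt2, a sodium-activated pore, was at 4.33 to 8.72 CPM in control and 1.46 to 3.75 CPM in IDA hearts. The ranges did not overlap. It fell by 1.28 ± 0.18 on the log2 scale (edgeR adjusted p = 2.58e-06) and by 1.10 with the length correction. Kcnn3, a small-conductance channel, fell from 3.69 to 1.502 CPM, by 1.30 ± 0.23 (edgeR adjusted p = 3.31e-05) and by 0.81 with the length correction. Kcnn2, which acts in atria, was at 29.2 and 26.0 CPM and was not called as measured (-0.18, edgeR adjusted p = 0.0826). It was called lower with the length correction (-0.28, adjusted p = 0.0127), with length and GC content (-0.27, adjusted p = 0.0211) and with the library numbers as a covariate (-0.22, adjusted p = 0.0183), and not with the GENCODE length (-0.12, adjusted p = 0.261). Kcnn4 rose by 0.46 ± 0.19 (edgeR adjusted p = 0.036), a call lost in 59 of 100 fits without a mouse of each group and without any of 8 single mice, at 0.39 without control 9 (adjusted p = 0.0694). It was not called with the length correction (0.36, edgeR adjusted p = 0.113), with length and GC content (0.15, adjusted p = 0.522) or by DESeq2 (0.46, adjusted p = 0.0691). Kcnma1, the large-conductance pore of smooth muscle, fell from 1.96 to 0.859 CPM, by 1.15 ± 0.26 (edgeR adjusted p = 0.000553), and 3 IDA hearts reached 1 CPM against 8 control hearts, so it passed the level filter mainly through the group where it was higher. With the length correction it was at -0.66 (edgeR adjusted p = 0.0369), and it was not called with the GENCODE length (-0.45, adjusted p = 0.153) or in the 8 higher-numbered libraries alone (-0.82, adjusted p = 0.209). Its beta subunit Kcnmb1 was at 10.5 and 10.3 CPM and was not called (-0.02, edgeR adjusted p = 0.914). The ratio of Kcnmb1 to Kcnma1 was higher by 0.85 (permutation test, adjusted p = 0.00044), and by 0.56 with the length correction (adjusted p = 0.0141). With Kcnmb1 at -0.02, the measured ratio mainly restates the fall of Kcnma1. It carries the same filter limit and is no separate support for that fall.

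Further genes called as measured, chosen for naming after their values were seen, were lower for Kcna1 (19.0 to 9.66 CPM), Kcnv2 (37.3 to 23.0 CPM), Kcnj15 (11.6 to 7.16 CPM), Kcnc2 (1.62 to 0.855 CPM) and Kcnt1 (1.31 to 0.704 CPM). With the length correction Kcna1 and Kcnv2 were each at -0.40 and stayed called (edgeR adjusted p = 0.0278 and 0.0253), and Kcnj15 (-0.34, adjusted p = 0.0884), Kcnc2 (-0.52, adjusted p = 0.103) and Kcnt1 (-0.51, adjusted p = 0.159) were not called. Kcnc2 reached 1 CPM in 9 control and 4 IDA hearts and Kcnt1 in 8 and 2, so both passed the level filter mainly through the group where they were higher. Levels were higher for Kcng2, a silent subunit of Kv channels (176 to 208 CPM), and for Kcnn1 (58.4 to 68.5 CPM), which was at 0.42 with the length correction (edgeR adjusted p = 6.47e-05). Kcng2 was called lower with length and GC content (-0.24, edgeR adjusted p = 0.00111), so its direction depends on the correction. Of the 42 untested members, 4 had no count in any mouse (Kcnh5, Kcnk9, Kcnk16 and Kcnv1). Just outside the filter were Kcnd1, which reached 1 CPM in 3 control and 5 IDA hearts, Kcnh1, in 3 and 4, and Kcnk1, in 5 and 2.

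Genes that act with potassium channels were taken from lists written with earlier results of these data known. Those named below were chosen for naming after their values were seen. Beside the counts of each list, 35% of all tested genes were called higher and 32.5% lower as measured. With the length correction these shares were 31.5% and 23.5%. Of 13 tested genes for trafficking and scaffolding, 6 rose and 6 fell as measured, and 6 rose and 3 fell with the length correction. The anchoring protein Akap5 fell by 1.59 (edgeR adjusted p = 2.37e-06) and by 1.15 with the length correction, and Cav3, the muscle caveolin, rose by 0.40 (adjusted p = 2.34e-07) and by 0.13. They had the largest fall and the largest rise of this list as measured. Of 11 tested genes of the sodium-potassium pump and cation-chloride carriers, 4 rose and 3 fell, and 5 rose and 5 fell with the length correction. Of 11 transcription factors known to act on these genes, 2 rose and 5 fell, and 3 and 3 with the length correction. Irx3 and Irx4 were the 2 that rose as measured, by 0.37 and 0.19 (edgeR adjusted p = 0.000608 and 0.00564). Irx5, a repressor of Kcnd2 in the ventricular wall, was not called (-0.02, edgeR adjusted p = 0.901).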

How the data were processed

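RNA-seq of cardiac tissue from 10 control and 10 IDA mice was used, each label being a separate mouse. Per the study's methods, STAR placed the reads on mm10 and duplicates were removed. The authors deposited whole-number counts of read pairs per gene from featureCounts (version 1.4.5-p1), without strand and without normalization, with exonic lengths. The study left out 1 mouse per group that its text does not name, so all 20 were kept.

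In R 4.3.3, counts were normalized by TMM and tested with edgeR 4.0.16 (quasi-likelihood), with Benjamini-Hochberg adjustment over 13590 genes at or above 1 CPM in 10 mice (9830 excluded). DESeq2 1.42.0 was an alternative. For the length correction, log2 deviations from the gene mean were smoothed on exonic length in every mouse by loess (span 0.5, degree 1, prior count 2), and the curve entered edgeR as offsets, which removes any length trend, technical or biological. GC content was known for 99.3% of tested genes. Ratios used permutation tests. Scripts were tested on simulated data.

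The members and lists were chosen with earlier results of these data known. Named genes were the tested members of a list of cardiac currents, the 5 highest and 5 lowest called fold changes, and members called in opposite directions by the 2 fits. Other genes are marked as chosen after seeing values. Results for 2 members are not reported here.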

Additional observations from a re-analysis of the deposited data

Results flagged for a closer look

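In 5 of 58 groups tested, the highest or lowest mouse stood apart from the other 9 by more than Dixon's 95% limit of 0.466 for its gap over the range, where chance gives about 1 in 20. Kcna4 was at 6.98 CPM in control 8, and the next mouse was at 4.61. Control 6 was highest for both genes of the slow delayed rectifier, Kcnq1 at 155.9 CPM with the next at 138, and Kcne1 at 39.7 CPM with the next at 26.7. Kcnj14 was at 10.4 CPM in IDA 4, and the next IDA heart was at 4.11. Kcnj8 was at 87.5 CPM in control 4, the lowest, and the next control heart was at 101.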

How the results depend on the processing

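The limits below concern both the number of calls and their direction. Of 50 members, 29 were called as measured, and 25 to 33 in 100 fits without a mouse of each group. With erythroid markers as a covariate it was 20 (8 higher). The count was 19 (6 higher) with length and GC content and 18 (3 higher) in the 8 higher-numbered libraries alone, which hold 5 control and 3 IDA mice. Of 35 named genes, 14 kept their sign in those libraries but lost their call. The share of all genes called was not counted for the erythroid covariate or for those libraries. The library number split, the GENCODE length and the within-number fits were added after seeing the data. Replicate numbers did not pair the mice: over 10 same-numbered pairs the correlation of deviations was -0.28 to 0.26, over 0.1 in 3, and 1 IDA mouse correlated best with its own number. The replicate block called 30 members, and with the length correction 11 were lower. In edgeR fits without 1 mouse, chosen after seeing the data, genes that were not called as measured were called for Kcna4 (without IDA 3, IDA 7, control 1 or control 4, lowest adjusted p = 0.0394), Kcnab2 (IDA 2, IDA 7, control 5 or control 6, lowest 0.0186) and Kcnn2 (IDA 7 or control 1, lowest 0.0327). Depth limits members near 1 CPM. The cause of the changes with processing was not tested.

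The median log2 fold change of the members, -0.05 as measured, was 0.17 with the length correction, 0.13 with the block and length, 0.0766 with GENCODE length, -0.21 with erythroid markers as a covariate and -0.16 to -0.0255 without a mouse of each group. Reversed signs for Kcnj12 were 0.24 (length), 0.0238 (length and GC), 0.23 (block and length) and 0.17 (erythroid covariate). For Kcnmb1 they were 0.18 (length), 0.29 (length and GC), 0.14 (block and length), 0.10 (GENCODE length), 0.12 (library size covariate), 0.10 (higher-numbered libraries) and at most 0.0813 without a mouse of each group. Kcnh2 was -0.056 (length and GC), -0.0051 (library size covariate) and -0.0301 (higher-numbered libraries). With length and GC, Kcna4 was 0.10, Kcnj11 -0.0207 and Kcng2 -0.24, and Kcna5 was 0.28 in the 12 lower-numbered libraries and -0.82 in the 8 higher-numbered ones.

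Among the ratios, the length correction gave 0.0683 for Kcnd3 to Kcnd2, 0.0114 for Kcne1 to Kcnq1 (-0.0653 to 0.0463 without a mouse) and 0.0553 for Kcnj8 to Kcnj11, which was then not called (adjusted p = 0.367). Under the replicate block by sign flips of same-numbered pairs, Kcnj12 to Kcnj2 (0.58, exact permutation adjusted p = 0.0618) and Kcnab1 to Kcna5 (-0.56, exact permutation adjusted p = 0.0931) were not called.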
